A study of Mus musculus with 14 samples.

Results

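The duodenal mucosa of mice 30 min after the start of a low-fat (LF) meal was compared with that of mice still fasting. The comparison used 4 of the 14 arrays of the series, namely both arrays of the LF30min pool and both arrays of the Fasting pool, and all 45037 probe sets that are not array controls were read, of 45101 in the table. All mice were male C57BL6, 12 weeks old, kept on the LF diet (10% of calories from fat) and then fasted for 12 h. The Fasting group was killed unfed, the LF30min group ate the LF diet freely until it was killed 30 min after the meal began, and 20 mice went into each group. The scraped mucosa of the 20 mice of a group was pooled, and its RNA was put on 2 Affymetrix mouse arrays, so each p-value measured the spread between arrays of a pool and not the spread between mice. The remaining pools, used here only where a gene of the LF30min comparison is followed further, were LF1h, LF3h and the high-fat (HF, 60% of calories from fat) pools HF30min, HF1h and HF3h, each from 20 mice of the same strain, sex and age.

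The duodenum is the first stretch of the small intestine and the first to meet chyme leaving the stomach. Its villi are covered mainly by enterocytes, which digest and take up sugars, peptides and fat, among goblet cells that secrete mucus and enteroendocrine cells that secrete hormones. Stress and early-response genes, such as those of the inducible heat shock proteins and the AP-1 and zinc finger factors, can be transcribed within minutes of a stimulus, whereas stable transcripts move more slowly. The gut was opened, rinsed and scraped, and this stretch lies next to the stomach and the pancreas, so transcripts of neighbouring organs were followed as marker lists beside those of the mucosa.

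Levels are log2 RMA values, on which 1 unit is a 2-fold difference, and a level under 6 lies in the range where 10413 of the 18193 genes stayed in all 4 arrays. A log2 difference that involves a pool in this range is given as measured and is uncertain in size, and no linear fold is printed for it. The tissue markers matched a duodenal mucosa in both pools. Fabp2, Alpi, Apoa4 and Vil1, all of the enterocyte, were near the top of the scale, with LF30min means of 13.27, 13.67, 13.75 and 12.18, and Pdx1, a factor of the proximal duodenum and pancreas, had a level of 8.69. The ileal genes Fabp6 and Slc10a2 had levels of 2.91 and 2.63. None of these 7 genes differed between the pools by an adjusted p under 0.05, the smallest adjusted p among them being 0.946. The median value of an array lay between 4.48 and 4.52. Across probe sets, the correlation between both arrays was 0.997 for Fasting and 0.996 for LF30min, and the 3′ minus 5′ log2 difference of Actb was 0.475 to 0.501 in the 4 arrays.

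After 30 min of the LF meal, the genes with the largest increases included gastric mucosa genes (Gkn1, Gkn2, Gkn3, Tff1, Tff2 and Anxa10) and the inducible Hsp70 gene Hspa1b, and those with the largest decreases included Cyp1a1 and Ins2. A change of 2-fold or more together with a limma adjusted p below 0.05 was found for 25 probe sets that were higher (0.0555% of those tested) and 11 that were lower (0.0244%) at LF30min. Without the 2-fold minimum, 147 probe sets were higher (0.326%) and 64 were lower (0.142%). With each gene represented by its probe set of highest mean over the 14 arrays, 61 of 18193 genes were higher (0.335%) and 12 were lower (0.066%). An unadjusted p under 0.05 was reached by 1878 probe sets in the higher and 1680 in the lower direction, and the median change over all probe sets was -0.01 on the log2 scale. Of the 36 probe sets changed at least 2-fold, 26 were assigned to a single gene and stood for 21 genes, 17 higher and 4 lower. In each of the 36, both LF30min arrays lay beyond both Fasting arrays. Such separation, here and below, is favoured by picking genes for a called change, and its share over all probe sets was not counted.

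**Figure D1:**
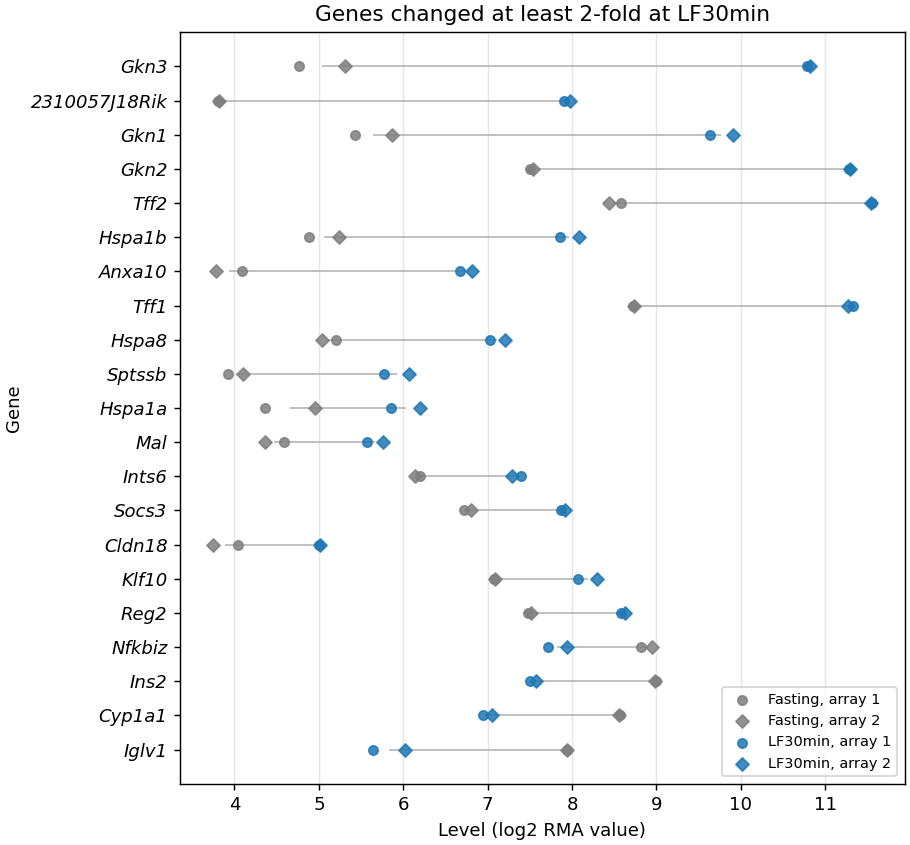
Levels (log2 RMA value, horizontal axis) of the 21 genes with a probe set changed at least 2-fold at LF30min, each by its probe set of largest change. Grey symbols are the 2 Fasting arrays, blue symbols the 2 LF30min arrays, and a line joins the pool means. For all 21 genes the 2 arrays of a pool lie closer to each other than to those of the other pool, with 17 genes higher at LF30min and 4 lower. Picking genes for a called change favours this separation.

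Stomach markers included genes with the largest increases. Gastrokines (Gkn1, Gkn2, Gkn3) are secreted by the surface mucous cells of the stomach, trefoil factors (Tff1, Tff2) are secreted with gastric mucus, and Tff2 is also a product of the Brunner's glands of the proximal duodenum. Gkn3 had levels of 4.77 and 5.31 in the Fasting arrays and of 10.78 and 10.82 in the LF30min arrays. Gkn2 went from 7.51 and 7.53 to 11.28 and 11.29, a 13.6-fold increase. Tff2 went from 8.58 and 8.44 to 11.55 and 11.54, an 8.21-fold increase. In these 3 genes the arrays of the pools did not overlap, and the differences of 5.77 ± 0.17, 3.77 ± 0.08 and 3.04 ± 0.08 on the log2 scale (SE) had limma adjusted p-values of 1.51e-10, 1.29e-11 and 1.51e-10. Tff1 rose 5.92-fold (2.57 ± 0.09 on the log2 scale, SE, adjusted p = 7.49e-10). The size for Gkn3 is uncertain, since its Fasting level lay under 6, and its other probe set gave a difference of 4.82 ± 0.10 (adjusted p = 1.29e-11). Gkn1 rose 11.1-fold on the brighter of its 2 probe sets and by 4.13 on the log2 scale on the other, whose Fasting level was 5.64. Anxa10, an annexin of the gastric epithelium, went from levels of 4.08 and 3.78 to 6.67 and 6.81 (adjusted p = 1.15e-07) on the brighter of its 2 probe sets. Its other probe set was not among those called with a change of at least 2-fold.

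Of the 19 measured stomach markers, 8 were higher, none was lower and the median change was 0.18 on the log2 scale, beside -0.01 over all genes. The other two were Ctse, an aspartic protease of gastric surface cells (0.82 ± 0.08, SE, adjusted p = 9.75e-05), and Muc5ac, the secreted gastric mucin (0.72 ± 0.09, adjusted p = 0.00164, with both pools under a level of 6). Markers of the acid- and enzyme-secreting gland cells did not pass the test: Atp4a, Atp4b, Cblif, Lipf, Pgc and Kcne2 changed by -0.09, -0.24, -0.03, 0.04, 0.09 and 0.18, and 5 of these 6 had LF30min levels under 6, with Atp4b at 6.47 and 6.06. Summed over the 19 genes, the linear intensity was 1920 and 1900 in the Fasting arrays and 11900 in both LF30min arrays. Cldn18, a claudin of stomach and lung that was not on the list, rose on both probe sets (1.11 and 0.96 on the log2 scale, levels under 6), and 2310057J18Rik went from 3.81 in both Fasting arrays to 7.90 and 7.98. Sptssb, a small subunit of serine palmitoyltransferase, rose on both of its probe sets (1.91 and 0.99), and Mal, an apical sorting proteolipid, on 1 of 2 (1.19, against 0.34 with an adjusted p of 0.537). In pooled tissue, more cells of a type and more RNA per cell cannot be told apart, and the part of stomach tissue or RNA in these increases was not tested. Without every gene of the stomach and pancreas lists, 16 probe sets were higher and 10 lower by at least 2-fold. Leaving out probe sets that can match several transcripts removed those representing Gkn1, Gkn2 and Anxa10, so these were not tested, and 5 stomach markers were called. The other Gkn1 probe set, which rose by 4.13, is not of this kind and had a limma adjusted p of 3.61e-10 in the main fit.

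The gastric genes had fallen by the next time point. In the direct comparison of LF1h with LF30min, all 8 called stomach markers were lower at LF1h, among them Gkn3 by 4.09, Gkn2 by 2.26 and Tff2 by 1.68 on the log2 scale (the sign here is LF1h minus LF30min: -4.09, -2.26 and -1.68, with adjusted p-values of 1.58e-08, 7.74e-09 and 1.15e-07). The direction is partly set by the choice of genes, since those picked for a high LF30min value share these arrays. At LF3h the levels of Gkn3, Gkn2 and Tff2 were 5.27, 7.12 and 8.17, beside 5.04, 7.52 and 8.51 in the Fasting pool. The HF30min pool showed levels of 11.61, 11.20 and 12.19, and the HF3h pool of 10.85, 9.40 and 11.49, with lower levels of 5.79, 7.69 and 9.42 in the HF1h pool between them.

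**Figure D2:**
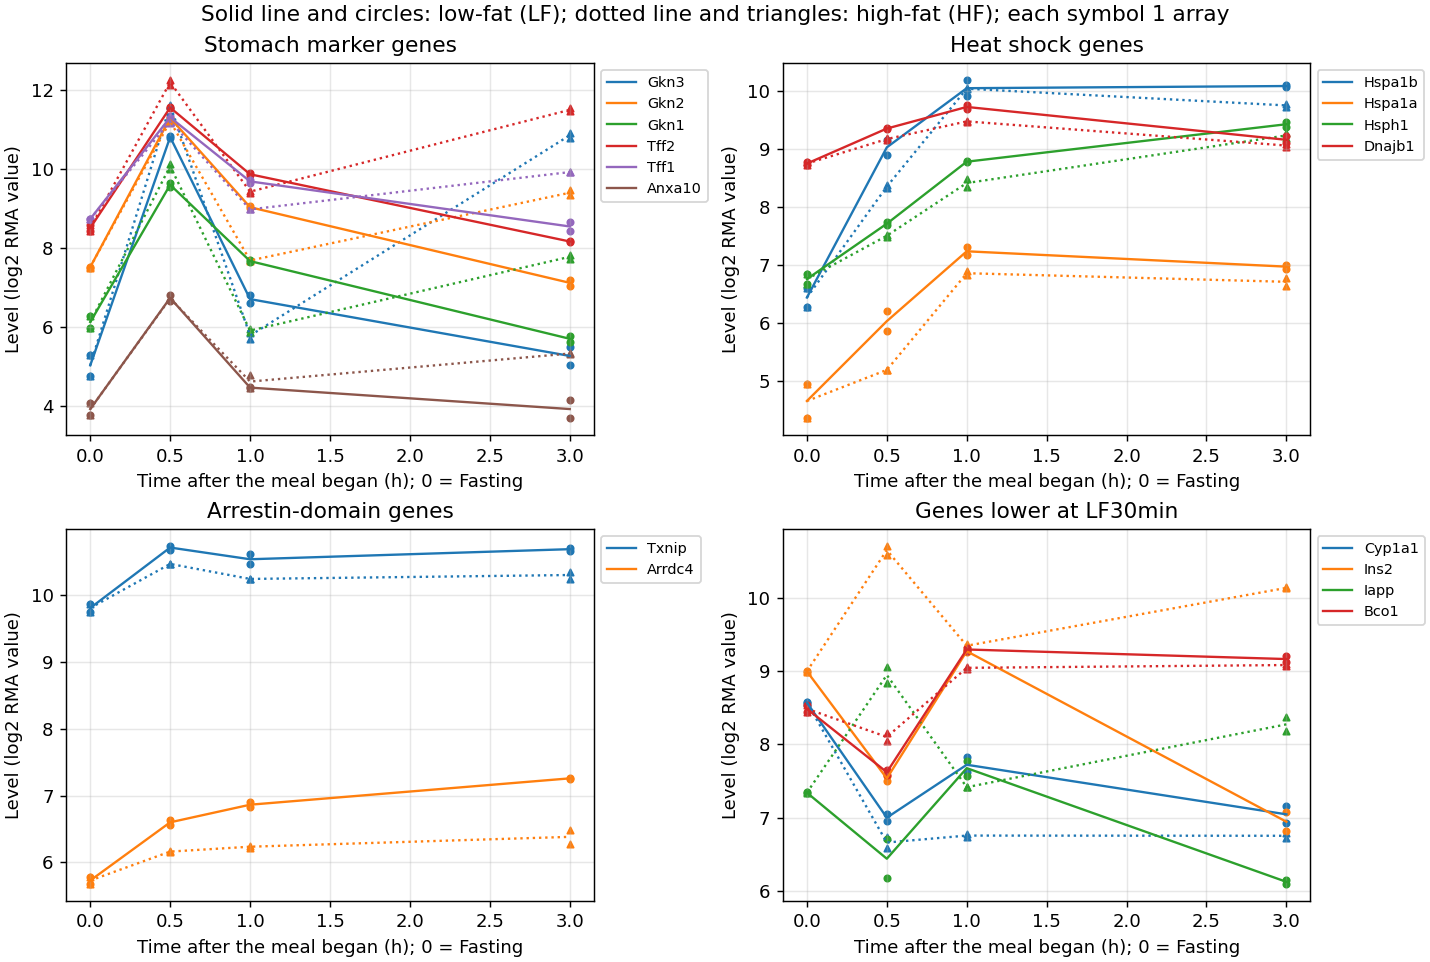
Levels (log2 RMA value, vertical axis) against time after the meal began (h, with the Fasting pool at 0) for 4 groups of genes called at LF30min. Solid lines and circles are the LF pools, dotted lines and triangles the HF pools, lines join pool means and each symbol is 1 array. The stomach genes peak at 30 min in the LF pools (Gkn3 from 5.04 to 10.80 and back to 6.71 at 1 h), whereas Hspa1b goes on from 9.02 at 30 min to 10.04 at 1 h.

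Heat shock genes formed the next group. The inducible Hsp70 proteins (Hspa1a, Hspa1b) refold damaged proteins, Hsph1 (Hsp110) and Dnajb1 (Hsp40) assist them, and their genes are classical targets of heat shock factor 1. Hspa1b had levels of 6.27 and 6.60 in the Fasting arrays and of 8.90 and 9.14 in the LF30min arrays, a 6-fold increase (2.59 ± 0.12 on the log2 scale, adjusted p = 4.01e-08), and its other 2 probe sets rose by 2.91 and 2.83. Hspa1a rose from 4.36 and 4.95 to 5.86 and 6.20 (1.37 ± 0.16, adjusted p = 0.000625). The sequences of these 2 genes are nearly identical, so their probe sets cannot be counted as fully separate measurements. Hsph1 went from 6.67 and 6.84 to 7.73 and 7.69 (0.95 ± 0.09, adjusted p = 7.85e-05) and Dnajb1 from 8.76 and 8.72 to 9.35 and 9.34 (0.60 ± 0.08, adjusted p = 0.00257). For all 4 genes the arrays of the 2 pools did not overlap.

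Of the 33 measured heat shock proteins and co-chaperones, these 4 were higher, none was lower, 29 had a change above 0 and the median was 0.09 on the log2 scale. Several members expressed in the Fasting pool did not pass the test. Hspd1 and Hspe1 of the mitochondrion differed by 0.00 each, Dnaja1 by 0.09 and Hsp90aa1 by 0.21. The cognate Hsc70 gene Hspa8 changed by 0.09 to 0.18 on 3 of its 4 probe sets, none of them called, while the dimmest rose from 5.20 and 5.04 to 7.02 and 7.20 (1.99 ± 0.10, adjusted p = 6.29e-08), so the change of Hspa8 depended on the probe set. With each of the 4 arrays left out in turn, Hspa1b changed by 2.42 to 2.75 and Hspa1a by 1.08 to 1.67. Hsph1 changed by 0.87 to 1.04 and Dnajb1 by 0.58 to 0.62. With only the 4 arrays fitted, 2 of the 33 were called. Leaving out probe sets that can match several transcripts removed those representing Hspa1b and Hsph1, so these were not tested, and 2 of the 33 were called. The Hspa1b probe set that rose by 2.91 is not of this kind and had a limma adjusted p of 4.19e-09 in the main fit. Of 30 genes of endoplasmic reticulum chaperones and the unfolded protein response, which serve secreted proteins, 0 were called by limma, 23 had a change above 0 and the median was 0.05, and their summed intensity was 24200 and 25300 in the Fasting arrays and 26400 and 26700 in the LF30min arrays. Over all genes, 8534 of 18193 had a change above 0.

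The promoters of the 4 heat shock genes are shown because these genes moved together. Each line holds the 300 bases from 250 before to 50 after the annotated start (RefSeq, GRCm38.p6, 5′ to 3′ on the gene's strand), at chr17:34959189-34959488 (minus strand), chr17:34972107-34972406 (minus), chr5:149636287-149636586 (minus) and chr8:83607925-83608224 (plus). Capitals mark 3 motifs on either strand, the heat shock element core GAANNTTC, the E-box CACGTG and the CCAAT box.
Hspa1b: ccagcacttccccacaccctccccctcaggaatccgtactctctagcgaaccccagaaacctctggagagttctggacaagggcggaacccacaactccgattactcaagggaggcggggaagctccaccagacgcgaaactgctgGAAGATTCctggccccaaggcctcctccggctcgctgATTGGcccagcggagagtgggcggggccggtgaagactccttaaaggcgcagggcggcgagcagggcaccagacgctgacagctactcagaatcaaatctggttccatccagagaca
Hspa1a: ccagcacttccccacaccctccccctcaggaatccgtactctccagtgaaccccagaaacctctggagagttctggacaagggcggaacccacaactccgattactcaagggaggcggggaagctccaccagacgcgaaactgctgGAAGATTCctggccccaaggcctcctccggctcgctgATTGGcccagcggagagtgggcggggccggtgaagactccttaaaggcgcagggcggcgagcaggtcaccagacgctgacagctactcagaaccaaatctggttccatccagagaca
Hsph1: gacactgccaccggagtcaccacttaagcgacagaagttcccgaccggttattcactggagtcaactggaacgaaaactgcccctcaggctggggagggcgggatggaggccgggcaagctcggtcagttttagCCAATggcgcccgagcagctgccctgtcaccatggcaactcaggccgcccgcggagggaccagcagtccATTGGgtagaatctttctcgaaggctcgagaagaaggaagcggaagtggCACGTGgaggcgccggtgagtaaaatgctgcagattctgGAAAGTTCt
Dnajb1: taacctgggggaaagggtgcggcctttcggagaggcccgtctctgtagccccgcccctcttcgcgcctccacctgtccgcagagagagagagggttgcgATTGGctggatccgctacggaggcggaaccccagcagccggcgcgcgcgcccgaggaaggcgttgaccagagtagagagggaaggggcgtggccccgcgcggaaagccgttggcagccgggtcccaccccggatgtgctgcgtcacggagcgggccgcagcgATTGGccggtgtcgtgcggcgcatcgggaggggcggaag
The windows of Hspa1b and Hspa1a differ at 4 of 300 positions, and both hold GAAGATTC starting 104 bases before the start. Hsph1 holds GAAAGTTC downstream of the start, and no GAANNTTC letters were found in the window of Dnajb1. Only the exact letters GAANNTTC were searched, so a heat shock element with TTC ahead of GAA stays unmarked in any window. The Hsph1 window holds letters of this opposite order upstream of the start, in lower case. GAANNTTC occurs in 7.95% of the 27025 gene windows of the same length, and in 7 of the 52 called genes that have a window (13.5%). CACGTG occurs in 7.24% of all windows and likewise in 7 of the 52 (13.5%), and CCAAT in 37.9% of all windows and in 28 of the 52 (53.8%). These matches are letters in a window, and binding was not measured.

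Hsph1 and both Hsp70 genes were higher still at LF1h than at LF30min, although a fall was the direction favoured by the choice of genes. The LF1h minus LF30min differences were 1.02 for Hspa1b (adjusted p = 0.000531), 1.20 for Hspa1a (adjusted p = 0.00125) and 1.07 for Hsph1 (adjusted p = 1.4e-05), and 0.37 for Dnajb1 (adjusted p = 0.0616). At LF3h the levels of Hspa1b, Hspa1a, Hsph1 and Dnajb1 were 10.08, 6.97, 9.42 and 9.15. Those of Hspa1b, Hspa1a and Hsph1 lay above their LF30min levels, and that of Dnajb1 lay below its LF30min level of 9.34. Gkn2 and Tff2 were at LF3h below their Fasting level.

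Immediate early genes were another group with called members. They encode transcription factors, phosphatases and RNA-binding proteins that are switched on without new protein synthesis. Over all 18193 genes, 61 were higher, 8534 had a change above 0 and the median was -0.01 on the log2 scale. Of 50 immediate early genes measured, 8 were higher, none was lower, 40 had a change above 0 and the median was 0.13. The 8 were Klf10, a zinc finger factor first known from TGF-beta signalling, the growth arrest genes Gadd45g and Gadd45b, the stress factor Atf3, the MAP kinase phosphatase Dusp1, Ier5, the mRNA-destabilising Zfp36 and the AP-1 subunit Junb. Klf10 went from levels of 7.07 and 7.08 to 8.08 and 8.30, a 2.16-fold increase (adjusted p = 7.61e-05). Gadd45g went from 5.82 and 5.87 to 6.90 and 6.72 (0.96 ± 0.11 on the log2 scale, adjusted p = 0.000438). Atf3 went from 6.74 and 6.77 to 7.56 and 7.59 (0.82 ± 0.08, adjusted p = 0.000191). The other 5 rose by 0.45 (Junb) to 0.74 (Gadd45b), with the 2 pools separated in each. In HF30min against Fasting, 4 of the 50 genes were higher, none was lower and the median was likewise 0.13.

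Several of these calls rested on both arrays being present. With only the 4 arrays fitted 3 of the 50 genes were called, and with a mean-variance trend 16. Without Fasting array 1 or without LF30min array 2, 3 of the 50 genes stayed above the threshold, and without Fasting array 2, 6 did. Dusp1 had adjusted p-values of 0.0767, 0.0645 and 0.0922 without Fasting array 1, Fasting array 2 and LF30min array 2, Gadd45b of 0.19 and 0.123 without Fasting array 1 and LF30min array 2, and Junb of 0.13 to 0.255 without any 1 of the 4. The classical members Fos and Jun had Fasting levels of 11.47 and 11.43 and of 9.56 and 9.65, and changes of 0.33 (adjusted p = 0.135) and 0.31 (adjusted p = 0.183). Of the 28 CREB1 targets measured, 3 were higher (Atf3, Dusp1 and Junb, all also immediate early genes), with a median of 0.06.

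Among cytokine and inflammation genes the calls went both ways. Socs3, an inhibitor of JAK-STAT signalling, rose from 6.72 and 6.80 to 7.87 and 7.92, a 2.19-fold increase (adjusted p = 2.76e-05). Its other 2 probe sets changed by 1.01 (adjusted p = 0.000542) and 0.34 (adjusted p = 0.216), and its level rose further at LF1h (8.55, adjusted p = 0.00322 against LF30min). Nfkbiz, the nuclear IkB-zeta, fell on all 3 of its probe sets, by -1.06, -0.56 and -0.49 on the log2 scale. The largest of these falls went from a Fasting mean of 8.88 to 7.82 at LF30min (limma adjusted p = 0.000191). The call on its brightest probe set (-0.56, adjusted p = 0.0306) was lost without any 1 of the 4 arrays, with adjusted p-values of 0.0884 to 0.218. Reg3g, a secreted antibacterial lectin, changed by 0.45 (adjusted p = 0.0282, and 0.0671 to 0.34 without any 1 array). Of 30 inflammation and NF-kB targets, 2 were thus higher and 1 lower, with a median of -0.01.

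Genes known to follow sugar supply were represented by an arrestin-domain pair. Txnip, which restrains glucose uptake and binds thioredoxin, and its relative Arrdc4 are targets of the glucose-sensing factors ChREBP and MondoA. Txnip went from levels of 9.86 and 9.74 to 10.68 and 10.73 (0.90 ± 0.09 on the log2 scale, adjusted p = 0.000112), and its other probe set rose by 0.94 (adjusted p = 0.000217). Arrdc4 went from 5.68 and 5.78 to 6.56 and 6.64 (0.87 ± 0.09, adjusted p = 0.000241) on 1 of its 2 probe sets, the other changing by -0.06. Their promoters are shown for the same reason as those of the heat shock genes, at chr3:96557707-96558006 (plus strand) and chr7:68749189-68749488 (minus strand), with capitals marking the same 3 motifs.
Txnip: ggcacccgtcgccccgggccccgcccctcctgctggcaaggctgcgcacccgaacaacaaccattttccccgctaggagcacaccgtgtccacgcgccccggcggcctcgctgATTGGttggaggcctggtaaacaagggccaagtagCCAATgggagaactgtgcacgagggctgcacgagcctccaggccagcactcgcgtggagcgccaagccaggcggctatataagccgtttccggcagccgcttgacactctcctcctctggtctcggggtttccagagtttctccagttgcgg
Arrdc4: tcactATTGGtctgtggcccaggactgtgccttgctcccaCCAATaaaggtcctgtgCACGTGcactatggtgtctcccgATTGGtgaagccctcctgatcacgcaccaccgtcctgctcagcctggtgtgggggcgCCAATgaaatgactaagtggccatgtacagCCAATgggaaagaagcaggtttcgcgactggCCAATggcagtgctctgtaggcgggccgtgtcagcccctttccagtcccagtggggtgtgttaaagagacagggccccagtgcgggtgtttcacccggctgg
The Arrdc4 window holds CACGTG 193 bases before the start and 6 CCAAT boxes, and the Txnip window holds 2 CCAAT boxes and no CACGTG. Only the exact letters CACGTG were searched, so an E-box with a changed letter stays unmarked in either window, and binding was not measured.

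These were the only 2 called genes among 27 of sugar digestion, transport and fructose use, and the median of that list was -0.01. The sodium-glucose transporter Slc5a1, the basolateral glucose transporter Slc2a2 and the fructose transporter Slc2a5 had changes of 0.00, -0.08 and -0.15, and the disaccharidases Lct, Mgam and Treh of -0.08, 0.08 and -0.07, none past the threshold. At LF1h, Txnip stood at 10.53 and Arrdc4 at 6.86, neither differing from LF30min (adjusted p = 0.556 and 0.329). Slc2a5 was higher at LF1h than at LF30min (0.62, adjusted p = 0.000894).

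Smaller groups had 1 or 2 called members each. Among 22 hypoxia and glycolysis genes, Ankrd37, an ankyrin-repeat target of HIF-1, rose by 0.80 ± 0.10 (adjusted p = 0.000919), and the peptide hormone adrenomedullin (Adm) by 0.72 ± 0.11 (adjusted p = 0.00926, and 0.118 and 0.11 without Fasting array 2 and LF30min array 2), while the glycolytic genes Ldha, Aldoa and Pgk1 changed by 0.02, 0.01 and -0.07. The circadian repressor Bhlhe40 (0.46, adjusted p = 0.023), the zinc exporter Slc30a1 (0.45, adjusted p = 0.0255) and the goblet-cell disulfide isomerase Agr2 (0.49, adjusted p = 0.0294) each lost the call without any 1 of the 4 arrays, with adjusted p-values of 0.122 to 0.26, 0.121 to 0.289 and 0.0993 to 0.214. Atf4, the factor of the amino acid response, rose by 0.51 (adjusted p = 0.0136), with 0.12 to 0.129 without Fasting array 1, Fasting array 2 or LF30min array 1, and no other of 31 genes of that response was called. Myl9, a smooth muscle myosin light chain, rose by 0.68 (adjusted p = 0.0114, and 0.187 and 0.134 without Fasting array 1 and LF30min array 2), 1 of 19 smooth muscle markers called, whose median was 0.18 and whose summed intensity went from 2780 and 2820 to 3010 in both arrays. The part of muscle tissue in the scraped material was not tested.

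Cyp1a1 had the largest decrease among the 12 genes lower at LF30min. It encodes the cytochrome P450 most strongly controlled by the aryl hydrocarbon receptor. Its levels were 8.57 and 8.56 in the Fasting arrays and 6.95 and 7.05 in the LF30min arrays, a 2.97-fold decrease (-1.57 ± 0.10 on the log2 scale, adjusted p = 1.9e-06). It was the only 1 of 28 xenobiotic and receptor genes called. The receptor gene Ahr (0.15), its repressor Ahrr (-0.31), Cyp1b1 (-0.17) and Cyp1a2 (-0.19) did not pass, the last 3 with levels under 6. The Cyp1a1 level stayed below that of the Fasting pool in every fed pool, at 7.72 in LF1h, 7.04 in LF3h, 6.66 in HF30min, 6.76 in HF1h and 6.75 in HF3h.

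A pair of beta cell genes was lower as well, among islet markers whose calls went both ways. Ins2 encodes insulin and Iapp amylin, both secreted by beta cells. Ins2 had a mean level of 8.99 with an SD of 0.0095 over both Fasting arrays and went to 7.50 and 7.57, a 2.75-fold decrease (adjusted p = 1.63e-06). Iapp went from 7.35 and 7.33 to 6.18 and 6.70 (-0.90 ± 0.14, adjusted p = 0.0117), a call lost without Fasting array 1 (0.134), Fasting array 2 (0.0915) or LF30min array 1 (0.0799). Of 12 islet markers, these 2 were lower, 5 had a change above 0, the median was -0.03 and Ttr, which liver and islets both express, was higher (0.87 ± 0.09, adjusted p = 0.000135). Sst, shared with enteroendocrine D cells, and Gcg, shared with L cells, changed by 0.07 and -0.05. The summed intensity of the 12 genes was 1740 and 1710 in the Fasting arrays and 1320 and 1420 in the LF30min arrays, and the part of pancreatic tissue in these values was not tested.

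Transcripts of pancreatic acinar enzymes were abundant in both pools without a called difference. Carboxypeptidase A1 (Cpa1) and trypsin 2 (Prss2) had changes of -0.15 each, and none of 18 enzymes was called, 1 of them having a change above 0 and the median being -0.09. Their summed intensity was 83000 in both Fasting arrays and 77800 and 79000 in the LF30min arrays. Among 23 other acinar genes, Reg2, a regenerating-islet protein secreted by acinar cells, was the 1 called, from 7.47 and 7.52 to 8.58 and 8.63, a 2.16-fold increase (adjusted p = 1.27e-05).

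A few lower genes belonged to no common group. Bco1, the enzyme that cleaves beta-carotene to retinal, went from 8.53 and 8.44 to 7.58 and 7.65 (-0.86 ± 0.08, adjusted p = 0.000112) and was above its Fasting level at LF1h (9.29) and LF3h (9.16). Rbm39, a splicing regulator, was lower on 1 of 12 probe sets (-0.68, adjusted p = 0.0032, and 0.0581 without Fasting array 2), the other 11 changing by -0.51 to 0.12. Iglv1, an immunoglobulin lambda variable gene, fell by -2.12 on the log2 scale on 1 of 3 probe sets (LF30min level 5.83) and by -0.08 on the others, while 0 of 14 B and plasma cell markers were called. Among the remaining lower genes were a pair of immunoglobulin kappa variable genes (-0.92 and -0.68), the lectin-like receptor gene Clec2e (-0.92) and the histone gene H3f3b (-0.66). Ints6, an Integrator subunit, was higher on 1 of 4 probe sets (1.17, adjusted p = 8.02e-05), the others changing by 0.15 to 0.51. Of the 36 probe sets changed at least 2-fold, 10 were assigned to no single gene, 3 of them higher and 7 lower.

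Most of the digestive and absorptive programme did not pass the test at 30 min. Of the 48 lists, 20 had a called member and 28 had none, the medians of the latter running from -0.10 to 0.16. None of 29 fat absorption, 27 fatty acid oxidation and PPARalpha, 20 amino acid and peptide transporter, 14 brush-border peptidase, 22 enteroendocrine hormone or 23 enterocyte genes was called, with medians of -0.02, -0.03, -0.05, -0.04, 0.00 and -0.03. Over all genes, 0.335% were called higher and 0.066% lower. At that share most lists of this size hold no called member, so a list without a call does not stand apart from the other genes. Cholesterol synthesis genes had the highest of these medians, 0.16, with 17 of 20 changes above 0. The largest were those of Cyp51 (0.49, adjusted p = 0.291), Sqle (0.37, adjusted p = 0.464) and Fdps (0.33, adjusted p = 0.309), none past the threshold.

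**Figure D3:**
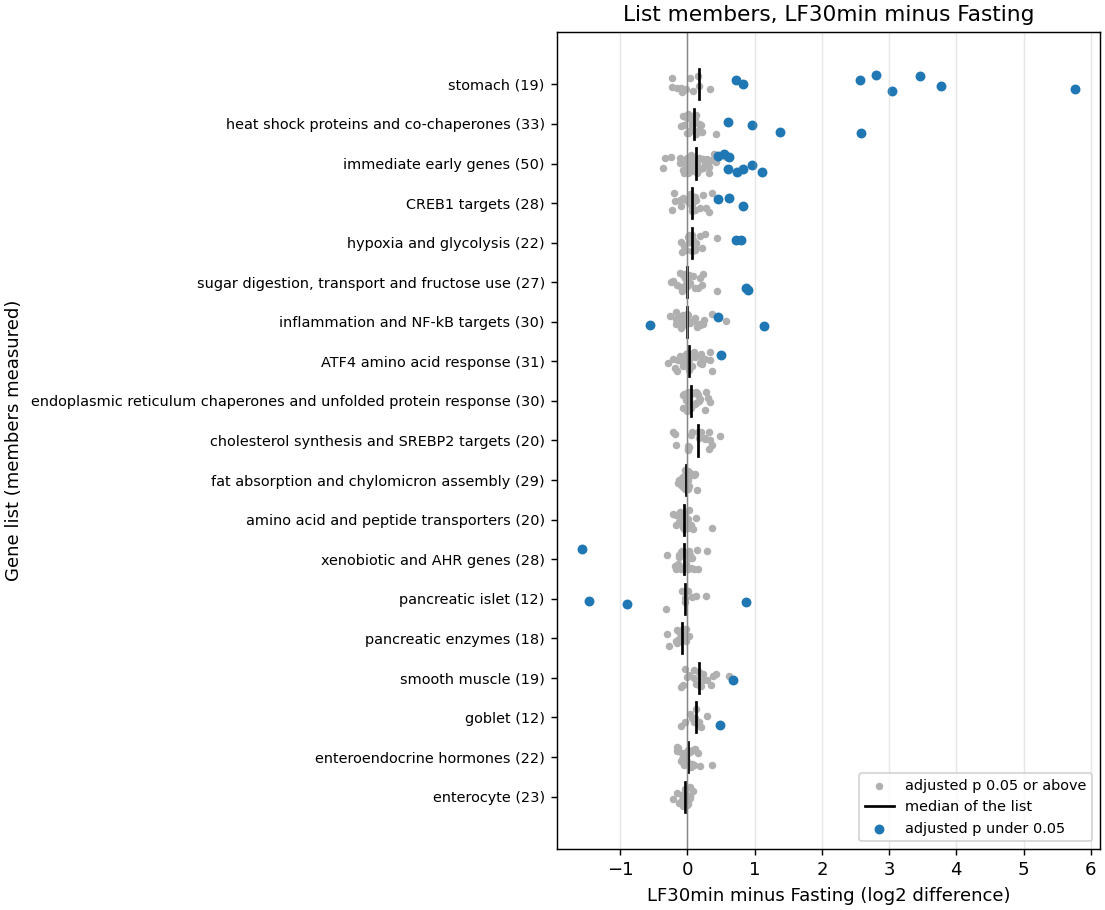
Log2 difference LF30min minus Fasting (horizontal axis) of every measured member of 19 gene lists (vertical axis, number of members in brackets). Blue points have an adjusted p under 0.05, grey points do not, black bars are list medians and the vertical spread within a list is for display. Called members lie to the right in the stomach, heat shock and immediate early gene lists (8 of 19, 4 of 33 and 8 of 50), and none is called in the enterocyte or fat absorption list.

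The high-fat pool of the same time shared most of the increases and differed in part. Of the 61 genes higher at LF30min than at Fasting, 37 were also higher in HF30min than in Fasting, and 0 were lower. Of the 12 lower genes, 5 were also lower there and 2 were higher. Over all 18193 genes, 138 were higher and 66 lower in HF30min than in Fasting. These contrasts share the Fasting arrays, which favours a common direction. In the direct contrast of HF30min with LF30min, 54 of 18193 genes were higher in HF30min (0.297%) and 46 were lower (0.253%). Of the 61 genes higher at LF30min than at Fasting, 6 were higher and 6 lower in HF30min, and of the 12 lower genes 3 were higher and none was lower. Genes picked for a high LF30min value tend to be lower in any other pool, because the contrasts share the LF30min arrays. Reg2 was lower in HF30min than in LF30min by -1.22 ± 0.09 on the log2 scale (adjusted p = 9.32e-06), with means of 7.39 in HF30min and 7.50 in Fasting. Ankrd37 differed by -1.03 ± 0.10 (adjusted p = 8.72e-05), Hspa1a by -0.84 ± 0.16 (adjusted p = 0.0339), Hspa1b by -0.68 ± 0.12 (adjusted p = 0.0262), Gadd45g by -0.54 ± 0.11 (adjusted p = 0.0457) and Junb by -0.43 ± 0.09 (adjusted p = 0.0479). In each of these 6 genes the LF30min pool had the highest level of the 3 pools. This follows from their choice, since they were picked as higher at LF30min than in both other pools. At the later times Reg2 stood at 9.02 in LF1h and 6.99 in LF3h, and at 9.06 in HF1h and 8.39 in HF3h.

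In the opposite direction, Ins2 was higher in HF30min by 3.11 ± 0.09 (adjusted p = 7.47e-10) and Iapp by 2.50 ± 0.14 (adjusted p = 1.12e-06), both also above the Fasting level. Of the 19 stomach markers 7 were higher in HF30min than in LF30min, including Tff2 (0.64 ± 0.08, adjusted p = 0.00243) and Muc5ac (0.84 ± 0.09, adjusted p = 0.000406). Gkn2 and Tff1 differed by -0.09 ± 0.08 and -0.10 ± 0.09 (adjusted p = 0.811 and 0.781). Along with Reg2, 14 of the 18 pancreatic enzymes were lower in HF30min than in LF30min, with a list median of -0.78, and 5 of the 12 islet genes were higher. Against Fasting, 16 of the 18 enzymes were lower in HF30min (median -0.89), whereas none was called at LF30min. Txnip and Arrdc4 had differences of -0.24 ± 0.09 (adjusted p = 0.355) and -0.44 ± 0.09 (adjusted p = 0.062), which did not pass the test. Both were also higher in HF30min than in Fasting, by 0.66 and 0.43 (limma adjusted p = 0.00134 and 0.0401).

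**Figure D4:**
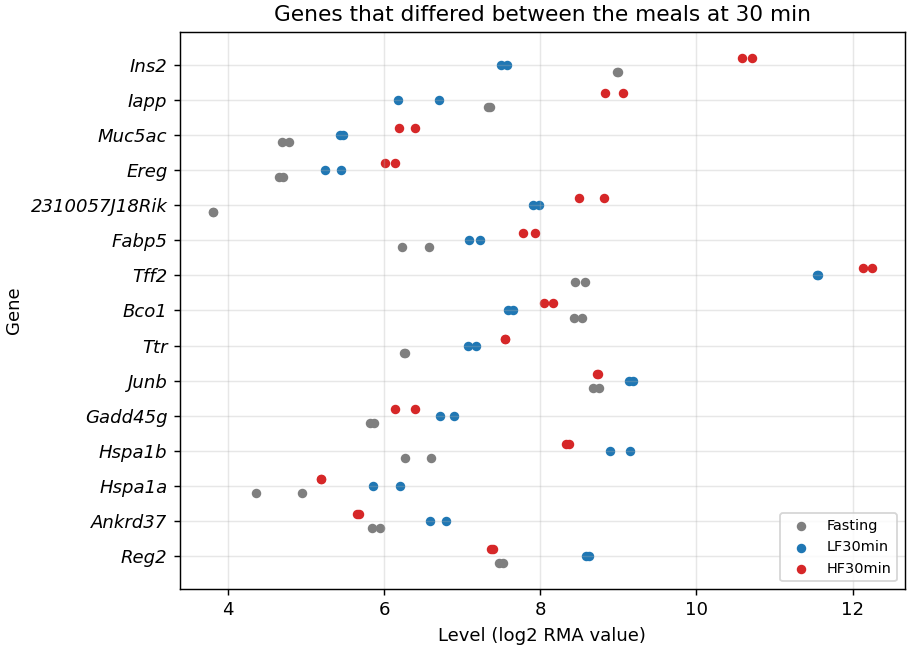
Levels (log2 RMA value, horizontal axis) of the 15 genes called at LF30min that also differed between the meals at 30 min, with 2 arrays each for Fasting (grey), LF30min (blue) and HF30min (red). Among the pools shown, Reg2 and Ankrd37 stand higher in LF30min only. Ins2 is 3.11 log2 units higher in HF30min than in LF30min, with the Fasting arrays in between.

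Compared with LF30min, 93 genes were higher at LF1h (0.511%) and 49 were lower (0.269%). Of the 61 genes higher at LF30min, 7 were higher still, 13 lower and 41 neither. Among those higher were Hspa1b, Hspa1a, Hsph1, Socs3, Bhlhe40 (0.64, adjusted p = 0.000936), Slc30a1 (0.46, adjusted p = 0.0189) and the epidermal growth factor receptor ligand Ereg (0.90, adjusted p = 0.00121). The 13 lower included all 8 called stomach markers, 2310057J18Rik, Sptssb, Cldn18 and Ttr. Of the 12 genes lower at LF30min, Cyp1a1, Ins2, Iapp and Bco1 were higher at LF1h, by 0.72, 1.73, 1.23 and 1.67, and Zfp945 was lower. In the same step all 18 pancreatic enzymes were higher at LF1h than at LF30min (median 1.06).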

How the data were processed

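Duodenal mucosa of 7 groups of mice was hybridised to Affymetrix mouse arrays, with 1 pool of 20 mice a group and 2 technical arrays a pool. The deposited values are log2 values that the authors made with Robust Multiarray Analysis (RMA, which subtracts background, normalizes the arrays and summarises probes), and their array number limits the precision. Probe sets were named from the platform annotation given with the data, with symbols updated through Entrez identifiers: of 45101 probe sets, 34945 had 1 gene, 932 several and 9160 none, and 64 array controls were left out. limma 3.58.1 in R 4.3.3 fitted 1 mean per pool over all 14 arrays (residual df 7, prior df 6.4), following the study's methods, with Benjamini-Hochberg adjustment over 45037 probe sets. A call is an adjusted p under 0.05, and the study's rule adds a 2-fold minimum. A gene is represented by its probe set of highest mean. Errors after ± are standard errors. Where a pool's level was under 6, log2 differences are given as measured and no linear fold is printed. Named genes were those of 2-fold probe sets, up to 4 called members of each list, tissue markers and the 10 genes most different between meals in each direction, and others were named after their values were seen, to complete a list or a group of changed genes. The comparison, the gene lists and the tests were chosen with earlier results of these data known. The fit was tested on simulated data with the spread between arrays and 50 changed probe sets of each size. Of the 1.5-fold changes 30 reached an adjusted p under 0.05. Of the 2-fold changes 45 did, and 21 also met the 2-fold minimum. Among unchanged probe sets 8 were called, none by the 2-fold rule. Real changes near these sizes can thus be missed. Alternatives covered thresholds, a level filter, the variance model, normalization, the replicate block and leaving out each array. Sis, a tissue marker of the rule, was not analysed here.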

Additional observations from a re-analysis of the deposited data

Results flagged for a closer look

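Among the genes called at LF30min against Fasting, 15 also differed between the meals at 30 min by the direct limma contrast, given as HF30min minus LF30min on the log2 scale, with the 2 arrays of a pool as technical replicates. Higher in LF30min were Reg2 (-1.22), Ankrd37 (-1.03), Hspa1a (-0.84), Hspa1b (-0.68), Gadd45g (-0.54) and Junb (-0.43). Higher in HF30min were Ins2 (3.11), Iapp (2.50), Muc5ac (0.84), Ereg (0.73), 2310057J18Rik (0.72), Fabp5 (0.69), Tff2 (0.64), Bco1 (0.48) and Ttr (0.43). Of these, Gadd45g, Ttr, Junb and Fabp5 had adjusted p-values of 0.0457, 0.0496, 0.0479 and 0.045. The call of Fabp5 against Fasting was lost without Fasting array 1 (adjusted p = 0.359), LF30min array 1 (0.0794) or LF30min array 2 (0.189), and that of Ereg without Fasting array 1 (0.23), Fasting array 2 (0.127) or LF30min array 2 (0.206). With 1 pool of mice a group, the spread between mice was not measured, and a difference between meals cannot be told apart from one between the mice of the pools.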

How the results depend on the processing

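Of the 42 named called genes, 20 lost the call when only the 4 arrays were fitted, 16 without some single array, 13 at an adjusted p under 0.01, and 1 each under quantile normalization and the replicate block. None changed sign where it was recomputed, and with the level filter 38 of the 42 were. The probe sets higher by at least 2-fold (25) numbered 102 with a 1.5-fold minimum, 16 without probe sets that can match several transcripts (suffixes _s_at, _x_at and _a_at), 16 without genes of the stomach and pancreas lists (an alternative chosen after seeing the data) and 24 to 35 without 1 array. Those lower (11) numbered 43, 7, 10 and 11 to 14. Without a fold minimum, the 147 higher and 64 lower probe sets became 64 and 31 at an adjusted p under 0.01, 354 and 106 when only probe sets with a mean of at least 6 in either pool were tested, 35 and 18 with only the 4 arrays fitted, 373 and 137 with a mean-variance trend, 378 and 140 with a robust trend, and 51 to 107 and 28 to 40 without 1 array. The 199 probe sets differing between HF30min and LF30min became 89, 901 (trend), 914 (robust trend) and 80 to 133, and the 281 differing between LF1h and LF30min became 148, 661, 660 and 170 to 188, in the same order of settings. The cause of these shifts was not tested.

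The 2 arrays of each pool carry numbers 1 and 2. Same-numbered arrays of Fasting and LF30min deviated together with a correlation of 0.151, the highest over all 21 pairs of pools, whose range was -0.187 to 0.151. This cannot tell whether same-numbered arrays were processed together, and the main fit treated them as unpaired. With the replicate block, 25 and 11 probe sets changed at least 2-fold, 142 and 58 without the fold minimum, and 176 and 243 in the comparisons with HF30min and LF1h. With 2 arrays a pool, changes under 2-fold are the ones most open to array error.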
